A study of Mus musculus with 6 samples.

Results

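Constitutive regions away from gene ends are stretches of open chromatin that were found in all 6 libraries of 3 epidermal cell populations and that lie apart from the starts and ends of protein-coding genes. Any peaks sharing 1 bp or more across the 6 libraries were joined, which gave 75738 consensus regions. A region was kept when every library had a peak in it, when it lay more than 1 kb from both ends of every protein-coding gene span, and when it lay inside or within 50 kb of such a span (mm10). These criteria left 19128 regions, or 25.3% of all consensus regions and 55.8% of the 34250 regions with a peak in all 6 libraries. They were chosen by the presence of a peak in every library, so that presence is a description and not a finding.

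The populations came from back skin of TNC-CREER; tdTomato mice on a C57BL/6 background at postnatal day 60. In these mice a tamoxifen-inducible Cre is driven by Tnc, which encodes tenascin-C of the extracellular matrix, and switches on a tdTomato reporter. Tamoxifen was injected 2 times, on days 51 and 52 after birth, at a dose of 100 µg for each gram of body weight, and all 3 populations share the alleles and this treatment. Touch dome cells, keratinocytes of the patches that hold Merkel cells, were sorted for EPCAM, SCA1, α6-integrin and TOMATO. Cells of the interfollicular epidermis (IFE) had the same surface markers but no TOMATO, and hair follicle (HF) cells had EPCAM and α6-integrin without SCA1 or TOMATO. Each population had 2 libraries of 50000 sorted cells. ATAC-seq uses a transposase to cut and tag accessible DNA, and the data were 1 peak list for each library, with 50153 to 59250 peaks. The labels do not say whether the libraries came from separate animals, so p-values measure only the spread between these libraries, which may be technical.

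Open chromatin away from gene ends commonly holds enhancers, which are bound by transcription factors and can act on promoters at a distance, along with insulators and promoters inside genes. Regions open in many related cell types often carry general or lineage-wide functions, and regions that vary among cell types are often tied to cell identity. In epidermis, p63, AP-1, AP-2, KLF and GRHL proteins are factors known to bind such elements. Which gene a distal element acts on cannot be read from position, so each region was labelled with the nearest protein-coding gene only as an address.

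The sequences that most plainly show what these regions can hold are those of genes with a start or a hairpin inside one. RefSeq (GRCm38.p6, the assembly behind mm10) lists 1005 microRNA hairpins in the table used here, and 28 of them overlapped 27 constitutive regions. That was 0.141% of the regions, against 22 of the other 30175 regions away from gene ends (0.0729%). The median region was 1235 bp wide among the constitutive regions and 641 bp among the others, and a wider region can overlap a hairpin more readily. The part of width in this difference was not tested. The mature sequences below belong to well-known hairpins among the 28, chosen after the values were seen. They are written 5′ to 3′ with the seed, bases 2 to 8, in capitals.

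miR-132-3p: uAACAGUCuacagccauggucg
miR-212-3p: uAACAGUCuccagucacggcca
let-7i-5p: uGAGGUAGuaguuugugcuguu
miR-210-3p: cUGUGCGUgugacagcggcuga
miR-193a-3p: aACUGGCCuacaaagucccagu
miR-365-3p: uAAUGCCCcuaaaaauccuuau

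The seed pairs with target messenger RNAs, and miR-132-3p and miR-212-3p share theirs, AACAGUC. Both hairpins lay in a single constitutive region of 1380 bp at chr11:75172479-75173858 (mm10), outside protein-coding genes and nearest to Ovca2. Peaks of the 6 libraries covered 1246 and 1371 bp of it in touch dome, 1345 and 1343 bp in IFE and 1336 and 1333 bp in HF. The touch dome libraries were the lowest and the highest, with IFE and HF between them, and 1246 bp lay under a peak of every library. The region of Mirlet7i, a member of the let-7 family known for restraining growth programmes, measured 1743 bp with 1509 bp common to all libraries. Mir210, a hypoxia-responsive microRNA, lay in a region of 1244 bp whose covered length ran from 1127 bp in the second touch dome library to 1205 bp in the first IFE library. The region of Mir193a was 1882 bp wide and that of Mir365-1 was 1071 bp wide, and neither lay inside a protein-coding gene. The widest of the 27 regions held Mir7687 within Gse1 and spanned 4489 bp, and the narrowest held Mir6961 within Bin2 and spanned 594 bp. The region of Mir3075 within Zmiz1 varied most among the named hairpins, with 400 and 1688 bp covered in touch dome, 1742 and 1686 bp in IFE and 2531 and 2250 bp in HF. The first touch dome library was far below the other 5 at this region.

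The other hairpins were Gm51277, Mir12181, Mir1960, Mir3109, Mir330, Mir5103, Mir5620, Mir6349, Mir6387, Mir6546, Mir6917, Mir6926, Mir6976, Mir713, Mir7228, Mir760, Mir7671, Mir7688 and Mir8096. Mir6917 lay in Erbb3, the gene of a receptor of the EGF receptor family, and Mir6976 in Srf, the gene of serum response factor. Their regions were 1160 and 1089 bp wide. The region of Mir8096 was wider in touch dome, with 1267 and 1172 bp, than in IFE, with 584 and 473 bp, and HF, with 617 and 725 bp. The touch dome values did not overlap those of the other populations there. This region was singled out after its values were seen, and no test result is given for it.

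Many genes have further transcription starts inside their spans, and the constitutive regions were compared with the other regions for holding one. Of the 19128 regions, 980 overlapped an inner start of a protein-coding gene, that is, a RefSeq start more than 1 kb from both ends of every protein-coding span (5.12%, exact 95% binomial interval 4.82 to 5.45%). Of the other 30175 regions away from gene ends, 171 did so (0.567%, 0.485 to 0.658%). Starts of long non-coding RNA (lncRNA) genes lay in 604 constitutive regions (3.16%, 2.91 to 3.42%) and in 300 of the others (0.994%, 0.885 to 1.11%). The intervals cover counting error only. Since a wider region can hold a start more readily, it matters beside these shares that the median region was 1235 bp wide among constitutive regions and 641 bp among the others. The part of width in the difference was not tested.

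The same starts can be read from the other side. RefSeq gave 3881 inner starts of protein-coding genes, of which 1158, in 929 genes, lay in constitutive regions away from gene ends. A further 194 lay in regions that some libraries lacked, 418 in constitutive regions that reached within 1 kb of a gene end, and 2111 in no region of any library. Vertebrate promoters fall broadly into CpG-rich ones, known for activity in many tissues, and CpG-poor ones, often more restricted. The CpG ratio compares the observed number of CpG dinucleotides with the number expected from base composition, and values over 0.6 are a common mark of CpG islands. In the 300 bases from 250 before to 50 after the start, the ratio passed 0.6 at 63.8% of the inner starts in constitutive regions away from gene ends. It did so at 76.3% of those in constitutive regions that reached within 1 kb of a gene end, at 34.0% of those in regions that some libraries lacked and at 11.3% of those in no region. The median number of CpG dinucleotides was 19, 22, 10 and 4 in the same order, and the median GC content was 61.0%, 63.2%, 57.3% and 50.0%. Inner starts in the regions described here were thus below those in constitutive regions at gene ends and above the rest. Over all 32851 promoters of the table, 35.8% passed 0.6. For lncRNA genes the order was the same at a lower level: 33.9% of 679 starts in constitutive regions away from gene ends passed 0.6, against 62.7% of 102 in other constitutive regions, 5.99% of 334 in regions some libraries lacked and 5.17% of 5593 in none.

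**Figure D1:**
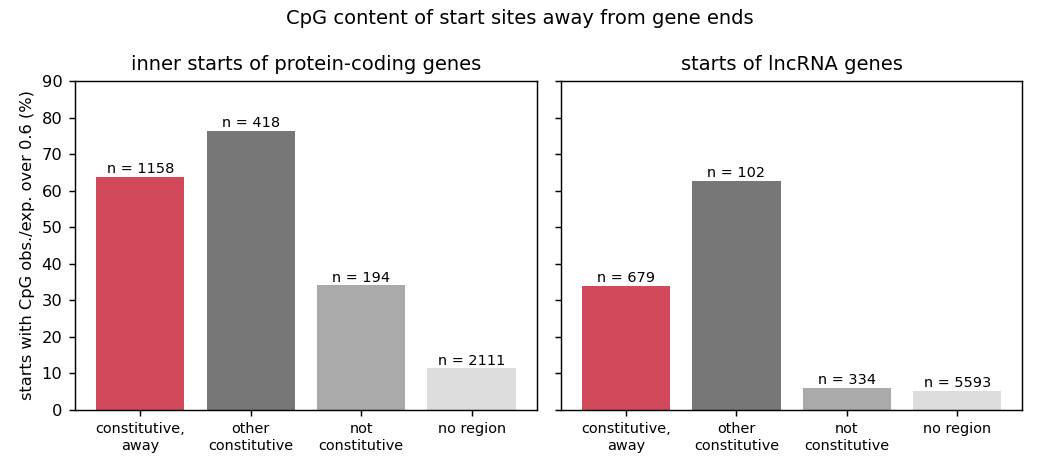
Percentage of start sites away from gene ends whose 300-base promoter had a CpG observed-to-expected ratio over 0.6, for protein-coding (left) and lncRNA genes (right). Bars stand for starts in constitutive regions away from gene ends (red), in other constitutive regions, in regions that some libraries lacked and in no region, with the number of starts above each bar; the values are 63.8%, 76.3%, 34.0% and 11.3% on the left and 33.9%, 62.7%, 5.99% and 5.17% on the right.

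Motifs in the same 300 bases were counted on both strands. The AP-1 motif TGANTCA was present at 7.08% of the inner protein-coding starts in constitutive regions, at 8.76% of those in regions some libraries lacked and at 7.81% of all promoters. The TATA box motif TATAAA was present at 5.61%, 8.25% and 13.6% in the same order, and at 15.2% of inner starts in no region. A match describes the letters of the window and is not evidence of binding.

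Among genes of the epidermal and signalling lists used here, 12 had an inner start in a constitutive region: Ctnnd1, Dst, Gata3, Lamb3, Lhx2, Ptch1, Rarb, Rarg, Rbpj, Runx1, Tfap2a and Tjp1. Promoters of 5 of them are printed to show that both CpG-rich and CpG-poor starts lay in constitutive regions. Each runs for 300 bases, 5′ to 3′ on the strand of the gene, in RefSeq GRCm38.p6, with CpG dinucleotides in capitals.

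Runx1: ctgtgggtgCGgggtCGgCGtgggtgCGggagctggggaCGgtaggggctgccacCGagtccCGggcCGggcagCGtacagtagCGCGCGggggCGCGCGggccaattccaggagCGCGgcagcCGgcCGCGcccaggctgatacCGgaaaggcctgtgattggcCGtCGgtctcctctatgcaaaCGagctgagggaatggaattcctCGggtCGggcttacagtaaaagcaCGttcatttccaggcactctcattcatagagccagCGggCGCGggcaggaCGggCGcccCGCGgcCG
Tfap2a: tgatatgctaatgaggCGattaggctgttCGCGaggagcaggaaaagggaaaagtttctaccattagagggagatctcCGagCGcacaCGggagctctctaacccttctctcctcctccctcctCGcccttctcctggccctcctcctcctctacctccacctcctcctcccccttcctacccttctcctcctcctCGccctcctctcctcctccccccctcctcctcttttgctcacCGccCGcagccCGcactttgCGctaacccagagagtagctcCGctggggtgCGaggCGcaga
Rarg: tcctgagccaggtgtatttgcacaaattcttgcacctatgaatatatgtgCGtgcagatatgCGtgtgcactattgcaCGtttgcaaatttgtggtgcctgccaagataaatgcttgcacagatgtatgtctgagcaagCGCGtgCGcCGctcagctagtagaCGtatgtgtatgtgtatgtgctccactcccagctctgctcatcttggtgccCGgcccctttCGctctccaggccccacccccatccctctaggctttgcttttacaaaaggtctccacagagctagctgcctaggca
Ctnnd1: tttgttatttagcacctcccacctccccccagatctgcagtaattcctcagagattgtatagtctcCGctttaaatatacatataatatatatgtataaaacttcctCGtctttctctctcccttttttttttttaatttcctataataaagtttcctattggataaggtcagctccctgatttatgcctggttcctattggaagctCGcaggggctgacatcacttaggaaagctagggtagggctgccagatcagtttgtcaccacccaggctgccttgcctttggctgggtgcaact
Lamb3: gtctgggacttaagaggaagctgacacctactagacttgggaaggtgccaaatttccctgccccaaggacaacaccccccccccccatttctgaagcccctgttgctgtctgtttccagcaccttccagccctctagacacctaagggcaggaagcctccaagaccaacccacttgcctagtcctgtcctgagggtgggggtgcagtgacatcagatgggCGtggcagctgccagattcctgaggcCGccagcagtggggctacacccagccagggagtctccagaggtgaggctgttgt

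The Runx1 window (chr16:92697280-92697579, minus strand) held 35 CpG dinucleotides, a GC content of 69.0% and a CpG ratio of 1.01. Runx1 encodes a transcription factor active in hair follicle stem cells, and the region over this start was covered for 2289 and 2594 bp in touch dome, 2459 and 2172 bp in IFE and 2709 and 2893 bp in HF. The HF values were the highest, but no comparison passed the test (smallest limma adjusted p = 0.0727, IFE against HF). Tfap2a encodes AP-2α, a factor of the surface ectoderm. Its window (chr13:40733746-40734045, minus strand) held 15 CpG dinucleotides at a ratio of 0.621, and the region over it was covered for 3129 and 3690 bp in touch dome, 3542 and 3275 bp in IFE and 3190 and 2919 bp in HF. Rarg, the gene of a retinoic acid receptor, had 10 CpG dinucleotides (chr15:102246451-102246750, minus strand), and its region was among the steadiest, with 1584 to 1675 bp covered in the 6 libraries.

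The other printed windows, of Ctnnd1 and Lamb3, were CpG-poor and were nevertheless open in every library. The window of Ctnnd1, the gene of the adherens junction protein p120-catenin, held 3 CpG dinucleotides at a GC content of 42.7% (chr2:84650691-84650990, minus strand) and a TATAAA match. Its region was covered for 1506 to 1680 bp. The window of Lamb3, the gene of the β3 chain of laminin-332 in the basement membrane, held 2 CpG dinucleotides (chr1:193301744-193302043, plus strand), and its region was covered for 1463 and 2120 bp in touch dome, 1543 and 1531 bp in IFE and 2093 and 1750 bp in HF. The highest CpG count among the list genes was 47, at Ptch1, the gene of the Hedgehog receptor. Its region was covered for 1983 and 3253 bp in touch dome, 3263 and 2698 bp in IFE and 1830 and 1900 bp in HF.

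The positions of all 19128 constitutive regions, those over starts included, were compared with those of the other regions away from gene ends. Inside protein-coding spans lay 11783 of them (61.6%, 60.9 to 62.3%), against 64.0% (63.4 to 64.5%) of the other regions. Exons, introns and UTRs were not told apart. The median distance to the nearest gene end was 16644 bp, with quartiles of 6959 and 36399 bp, against 19621 bp for the other regions. An end of a lncRNA gene lay within 1 kb of 1527 constitutive regions (7.98%, against 4.25% of the others), and an end of a transfer RNA gene within 1 kb of 75 (0.392%, against 0.0563%). By chromosome, the share of regions away from gene ends that were constitutive ran among the autosomes from 34.1% on chromosome 14 to 43.1% on chromosome 11, and it was 33.4% on chromosome X. Over the genome it was 38.8% of 49303 regions. For comparison, 82.5% of the regions at gene ends and 30.8% of the regions more than 50 kb from a gene were constitutive.

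The rule sets 3 boundaries, and the regions just across each are given as a description. There were 3631 regions away from gene ends with a peak in 5 of the 6 libraries, with a median region width of 912 bp. Of these, 1138 lacked only the first touch dome library and 72 only the second, 414 and 419 only an IFE library, and 898 and 690 only an HF library. The first touch dome library had the fewest peaks and the second the most. At the inner distance limit, 970 members lay 1 to 2 kb from a gene end with a median width of 1201.5 bp, and 592 constitutive regions lay just under 1 kb from one with 1265.5 bp. At the outer limit, 627 members lay 40 to 50 kb from the nearest gene with a median width of 1231 bp, and 517 constitutive regions lay 50 to 60 kb away with 1254 bp.

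A total of 7379 genes were nearest to at least 1 constitutive region, of which 3502 had a single region and 226 had 10 or more. Rad51b, a DNA repair gene, came first with 37 regions, 35 of them inside its span of 551 kb at chr12:79297282-79848260. Auts2, a chromatin regulator known from neural development, and Tiam1, an activator of the GTPase Rac, had 24 each. Nfib, a transcription factor of hair follicle stem cells, had 22, and Atxn1, Kank1 and Macrod2 had 21 each. Aopep, Asap1 and Casz1 had 20 each. Long genes hold more regions, so density is given as well. Kank1, a regulator of the actin cytoskeleton, had 10.6 regions per 100 kb of span and the zinc finger gene Casz1 had 11.3, whereas Macrod2 had 1.05, close to the 1.12 per 100 kb over all protein-coding spans.

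The share of a gene's regions that were constitutive separated genes further. Irf2bpl, Pkp1 and Vdr each had 10 constitutive regions among 11 away from gene ends. Pkp1 encodes plakophilin 1 of desmosomes and Vdr the vitamin D receptor, which acts in the hair cycle and in keratinocyte differentiation. Of 21 regions nearest to the ETS factor gene Ets2, 17 were constitutive. Of 67 at Macrod2, 21 were.

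Constitutive regions were joined into groups where the gap between neighbours stayed under a fixed length. A gap of 5 kb gave 16189 groups and one of 25 kb gave 9049, and the groups described here come from a single length between these, which gave 12247 groups, of which 8439 held 1 region and 350 held 5 or more. Groups of 2 or more held 55.9% of the constitutive regions, and the same joining placed 56.9% of the other regions away from gene ends in such groups, so the 2 shares were close. The group with the most members held 18 regions in 111 kb of Kank1 (chr19:25297099-25408103), with 3 other regions between them. The next held 16 regions at Dab2ip, a gene of a Ras GTPase-activating protein, in 123 kb. Then came 14 regions at Ripk4 and Tmprss2 in 93.6 kb, 13 at Hdac7 and Vdr in 76.9 kb and 12 at Sik3 in 106 kb. Ripk4 encodes a kinase required for epidermal differentiation.

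The group at Hdac7 and Vdr (chr15:97823994-97900922) held no region away from gene ends that any library lacked. Its peaks covered 16306 and 16632 bp in touch dome, 17788 and 17330 bp in IFE and 16736 and 15810 bp in HF, so the 6 libraries differed little over the whole group. Within it, the region at chr15:97862847-97864032 in Vdr was covered for 1084 and 1116 bp in touch dome, 1125 and 1136 bp in IFE and 1141 and 1147 bp in HF. Single regions could differ more than the total. The region at chr15:97889733-97891314 in Vdr was covered for 1354 and 1319 bp in touch dome, 1577 and 1522 bp in IFE and 1126 and 858 bp in HF (log2 IFE minus HF = 0.62, SE 0.13, limma adjusted p = 0.0428). At Kank1 the totals were 18066 and 21636 bp in touch dome, 20049 and 18282 bp in IFE and 21275 and 19530 bp in HF. The Dab2ip group was covered for 18652 and 19286 bp in touch dome, 20275 and 19518 bp in IFE, and 16665 and 16341 bp in HF, where HF was lowest in both libraries.

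Gene lists of epidermal function were described by the share of their regions away from gene ends that were constitutive, beside the 38.8% over all genes. This share follows from the rule and carries no test. Epidermal transcription factors had 102 constitutive regions of 193 (52.8%, exact interval 45.6 to 60.1%), at 19 of 20 genes. Trp63, the master regulator of stratified epithelia, had 15 of 31, the grainyhead factor gene Grhl2 had 10 of 19, Bcl11b had 9 of 20 and the ETS factor gene Ehf had 8 of 16. Components of the Notch pathway, which drives exit from the basal layer, had 62 of 115 (53.9%, 44.4 to 63.2%), led by the coactivator genes Maml3 with 20 of 29 and Maml2 with 10 of 21, and by the receptor gene Notch3 with 6 of 7 and the target gene Hes1 with 5 of 10. EGF receptor signalling had 63 of 124 (50.8%, 41.7 to 59.9%), with 13 of 24 at the receptor gene Egfr, 12 of 21 at Lrig1, 10 of 17 at Spred2 and 6 of 10 at Errfi1, the last 3 being negative regulators.

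Genes of cell attachment were described in the same way. Desmosome genes had 41 of 81 (50.6%, 39.3 to 61.9%), with 10 of 11 at Pkp1, 8 of 14 at the desmoplakin gene Dsp, 6 of 10 at Perp and 4 of 8 at the plakoglobin gene Jup. Adherens and tight junction genes had 78 of 162 (48.1%, 40.2 to 56.1%), with 16 of 44 at the polarity gene Pard3, 13 of 19 at Nectin1 and 10 of 17 at the E-cadherin gene Cdh1. Hemidesmosome and basement membrane genes had 63 of 148 (42.6%, 34.5 to 50.95%), with 13 of 33 at Dst, which encodes a plakin that anchors keratin filaments. Retinoid, vitamin D and steroid receptor genes had 72 of 151 (47.7%, 39.5 to 56.0%), with 14 of 44 at Rora and 11 of 23 at Rxra. AP-1 genes had 26 of 47 (55.3%, 40.1 to 69.8%), of which Fos had 8. Inside spans of the list's genes the count was 2 of 9 (22.2%). Keratin genes had 8 of 17.

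The lists tied to a single population had shares below the 38.8% over all genes, but both intervals held that value and no test was made. Hair follicle stem cell genes had 104 of 285 (36.5%, 30.9 to 42.4%), with 22 of 51 at Nfib, 13 of 31 at Runx1, 12 of 26 at Nfatc1 and 12 of 19 at Tcf7l1. Touch dome keratinocyte genes had 35 of 110 (31.8%, 23.3 to 41.4%), with 11 of 26 at the Hedgehog effector gene Gli2, 8 of 35 at the adhesion gene Cadm1 and 5 of 15 at Tnc. Housekeeping genes had 13 of 33.

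Markers of cell types that the gates could still hold, or should lack, were counted the same way. Merkel cell markers had 3 of 17, melanocyte markers 11 of 33, fibroblast markers 6 of 23, neuron markers 10 of 42 (23.8%, 12.1 to 39.5%) and immune markers 0 of 4. Endothelial and mural markers had 19 of 49, Schwann cell markers 17 of 31, and hepatocyte and cardiomyocyte markers, which no gate should hold, 5 of 9. A region nearest to a marker gene need not act on it, so none of these counts shows another cell type in the sort.

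**Figure D2:**
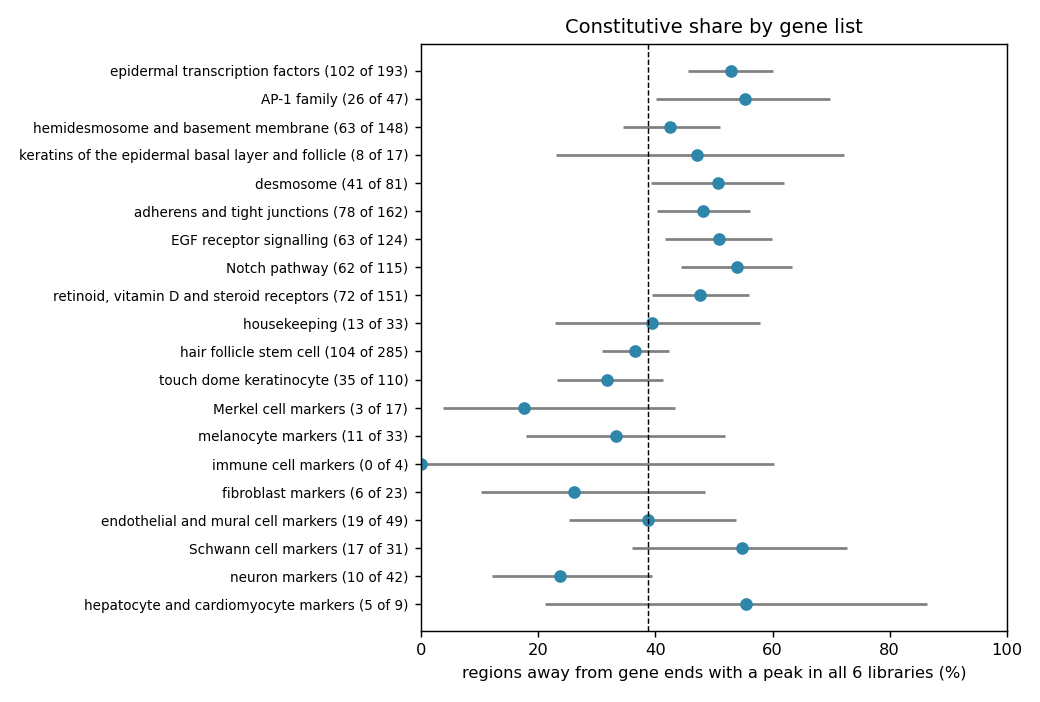
Share of regions away from gene ends that had a peak in all 6 libraries, for 20 gene lists; points are percentages, lines exact 95% binomial intervals, the counts stand beside the names and the dashed line marks the 38.8% over all genes. The intervals cover counting error only and test nothing; the points run from 0% for immune markers to 55.6% for hepatocyte and cardiomyocyte markers.

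The presence of a peak is fixed by the rule, but the number of base pairs that a library's peaks cover in a region, here called width, is not, except that it cannot be 0. Peak lists carry no height, so width was the only graded measure. Median width over the constitutive regions was 937 and 1081 bp in the touch dome libraries, 1049 and 1001 bp in IFE and 1004 and 963 bp in HF. The touch dome libraries were the lowest and the highest of the 6. Regions away from gene ends that some libraries lacked had medians of 533 to 583 bp where they were open, and constitutive regions at gene ends had 1193 to 1284 bp. The constitutive regions away from gene ends held 39.8% ± 2.58 (SD, n = 2) of the peak length in touch dome, 41.4% ± 0.488 in IFE and 38.0% ± 0.774 in HF. The two-sided exact permutation p was 0.667, 0.667 and 0.333 for the touch dome and IFE pair, the touch dome and HF pair and the IFE and HF pair, and 0.333 is the smallest that 2 libraries against 2 allow.

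**Figure D3:**
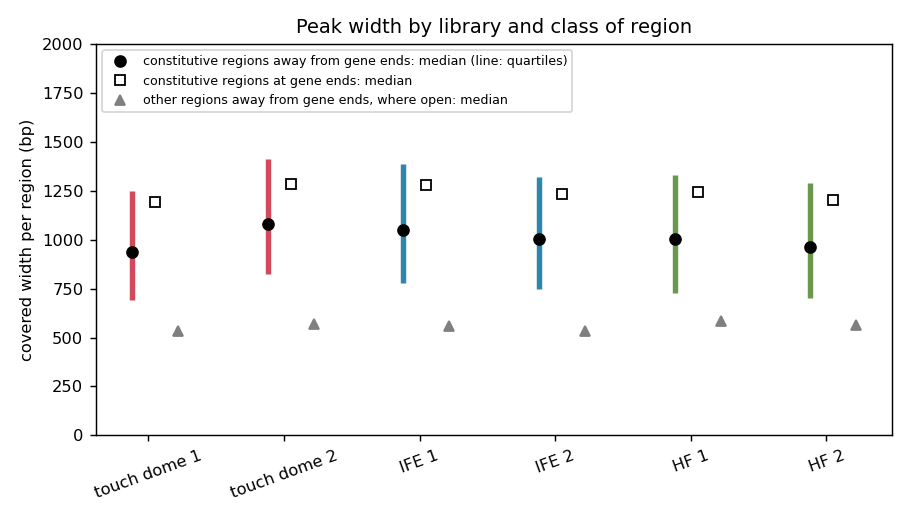
Covered width per region in bp for each library: filled circles are medians of the constitutive regions away from gene ends with lines between the quartiles, open squares medians of constitutive regions at gene ends and triangles medians of the other regions away from gene ends where open. The filled circles lie between 937 and 1081 bp, above the triangles and below the squares in every library.

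The extent of a constitutive region varied among the 6 libraries, in most regions by no more than 2-fold. A single peak in each library made up 18101 regions (94.6%), and a median of 725 bp per region lay under a peak of all 6 libraries in 1 unbroken run, a common core with quartiles of 487 and 1019 bp. In 81 regions no base was shared by all 6. The widest library's value was a median of 1.47 times the narrowest, and the ratio passed 2 in 4119 regions (21.5%) and 3 in 1092 (5.71%). The widest cores were 3663 bp near Zswim4, 3586 bp in Pik3r1, 3397 bp in Kdm6b, 3234 bp in Btbd11 and 3171 bp in Nr4a2. Kdm6b encodes a histone H3K27 demethylase known from epidermal differentiation, and its region (chr11:69408593-69412115) was covered for 3494 and 3459 bp in touch dome, 3518 and 3505 bp in IFE and 3441 and 3397 bp in HF. The region in Nr4a2, an orphan nuclear receptor gene, ranged only from 3195 to 3320 bp.

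At Trp63, some of the 15 constitutive regions had similar widths in the populations and others differed. The region at chr16:25842744-25845035 was covered for 1844 and 2080 bp in touch dome, 2047 and 1907 bp in IFE and 1954 and 1981 bp in HF, with overlapping populations. The region at chr16:25801191-25805787, the longest at the gene with 4597 bp, was covered for 2476 and 4420 bp in touch dome, 3125 and 3165 bp in IFE and 4277 and 4248 bp in HF. Here the 2 touch dome libraries lay further apart than IFE from HF. The region at chr16:25860769-25862257 was wider in IFE, with 1411 and 1439 bp, than in touch dome, with 818 and 913 bp (log2 touch dome minus IFE = -0.70, SE 0.085, limma adjusted p = 0.0494) and than in HF, with 1030 and 936 bp (IFE minus HF = 0.50, SE 0.085, adjusted p = 0.0233). The region at chr16:25911022-25913628 was wider in touch dome, with 2384 and 2607 bp, than in HF, with 1649 and 1602 bp (log2 difference 0.60, SE 0.092, adjusted p = 0.0299).

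Width ranks were most alike between libraries of IFE and between libraries of HF. Spearman's rho over the 19128 regions was 0.904 between the IFE libraries, 0.895 between the HF libraries and 0.853 between the touch dome libraries. Touch dome and IFE libraries gave 0.843 ± 0.0108 (SD, 4 pairs of libraries), those of touch dome and HF 0.733 ± 0.0329 and those of IFE and HF 0.673 ± 0.0187. These are descriptions across regions, which share libraries and are not independent. The second touch dome library correlated with the second IFE library at 0.855, above its value with the other touch dome library. The mean within populations exceeded the mean between them by 0.134, the highest value among 15 possible pairings (next 0.107), with a one-sided exact permutation p of 0.0667, the smallest this design allows.

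**Figure D4:**
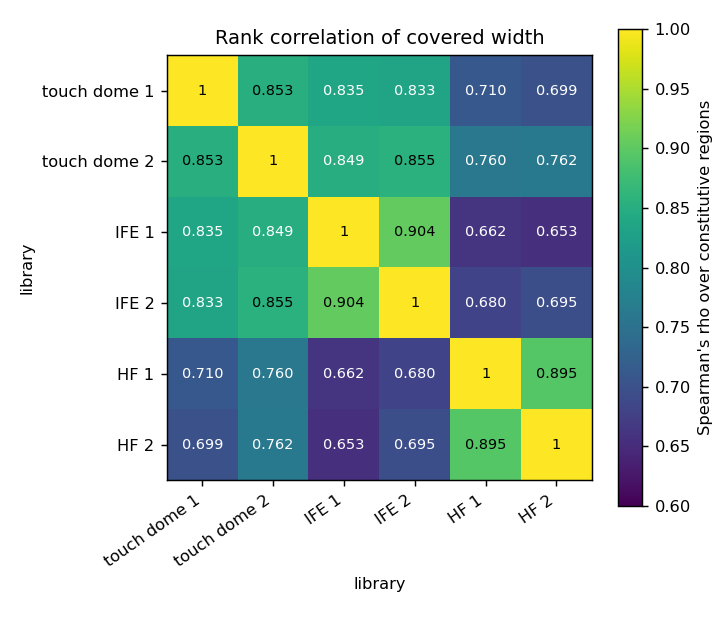
Spearman's rho of covered width between each pair of the 6 libraries over the constitutive regions away from gene ends, with the value printed in each square and colour from 0.6 to 1. Touch dome libraries sit between the others, at 0.833 to 0.855 with IFE and 0.699 to 0.762 with HF.

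Width was compared between populations region by region with limma on log2 width after centring each library on its median, over all 34250 constitutive regions, with a Benjamini-Hochberg adjusted p under 0.05 as the call. No comparison was passed by 16495 of the regions away from gene ends (86.2%), and 2633 (13.8%) passed at least 1. The same count was not made over all 34250 regions, so the 13.8% cannot be set against a share over all. For each comparison and direction, the share over all regions tested is given below. Each group had 2 libraries and the fit 3 residual degrees of freedom. The 3 comparisons share libraries, so their counts are not independent of each other. Regions away from gene ends make up 55.8% of those tested, so the percentages over all regions given beside them are partly their own. At the 980 regions over an inner protein-coding start, 0.204%, 1.33% and 5.61% were called in the comparisons of touch dome with IFE, of touch dome with HF and of IFE with HF, beside 0.534%, 5.69% and 13.4% of the remaining 18148.

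Touch dome and IFE, which share every sort marker but TOMATO, differed in width at few regions. There were 88 wider in touch dome (0.460%, against 0.388% of all regions tested) and 11 wider in IFE (0.0575%, against 0.0526%). The 88 had medians of 1241.5 and 1415 bp in the touch dome libraries and 484.5 and 465 bp in IFE. In HF, which entered this comparison only through the shared estimate of spread, they had 1486.5 and 1470 bp. In Map2, the gene of a neuronal microtubule-associated protein, the region at chr1:66219758-66221823 was covered for 1616 and 2066 bp in touch dome, 315 and 409 bp in IFE and 972 and 891 bp in HF. The touch dome values lay above all others, a difference from IFE of 2.37 on the log2 scale (SE 0.17, limma adjusted p = 0.0193). Near Lbh, which encodes a transcriptional cofactor, the widths were 1606 and 2499 bp in touch dome, 423 and 407 bp in IFE and 2681 and 2043 bp in HF (touch dome minus IFE = 2.29, SE 0.18, adjusted p = 0.0261). In Bnc2, which encodes the zinc finger protein basonuclin 2, they were 2358 and 2821 bp, 530 and 792 bp, and 3178 and 2956 bp in the same order (2.01, SE 0.20, adjusted p = 0.0320). IFE was the narrow population at both, with touch dome nearer to HF. Regions in Auts2 (log2 difference 2.16) and Camk2b (1.96) had the same order of touch dome over IFE.

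In the other direction, the region in Grm4, a glutamate receptor gene, was covered for 378 and 513 bp in touch dome, 1168 and 1158 bp in IFE and 1433 and 1132 bp in HF (-1.38, SE 0.15, limma adjusted p = 0.0424). The region in Deptor, which encodes an inhibitor of mTOR, was covered for 659 and 612 bp, 1406 and 1325 bp, and 1399 and 1352 bp (-1.08, SE 0.11, adjusted p = 0.0360). Touch dome was the narrow population at both. Regions near Adgrd1 (-0.91), in Foxn3 (-0.85) and near Tubb2a (-0.80) followed. The calls of this comparison depended on each library in the fit, including those of HF, which entered only through the estimate of spread. Leaving out either HF library left the difference at Map2 at 2.37. With all 6 libraries, 1884 regions had an unadjusted limma p under 0.05. Without the second touch dome library 12 regions were wider in touch dome and 40 in IFE, and without the first touch dome library, or without either HF library, limma called 0 at the adjusted threshold, with 2002, 1750 and 1744 at an unadjusted p under 0.05. The values without each IFE library were 46 and 47, all wider in touch dome, and 16 regions were called without centring, all wider in touch dome.

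The comparison of touch dome with HF called 1046 regions. There were 796 wider in touch dome (4.16%, against 3.26% of all regions tested) and 250 wider in HF (1.31%, against 1.12%). The 796 had medians of 1179.5 and 1302 bp in touch dome and 602.5 and 583.5 bp in HF. In IFE, which entered this comparison only through the shared estimate of spread, they had 1303 and 1222.5 bp. In Cep78, a centrosomal gene, the region at chr19:15961822-15965332 was covered for 2523 and 3269 bp in touch dome, 2621 and 2751 bp in IFE and 513 and 548 bp in HF (touch dome minus HF = 2.42, SE 0.10, limma adjusted p = 0.00482). In Sirt2, the gene of a NAD-dependent deacetylase, the widths were 2068 and 2140 bp, 2138 and 2111 bp, and 422 and 361 bp (2.41, SE 0.092, adjusted p = 0.00482). Touch dome and IFE overlapped at both and HF stood apart. Regions near Lnpep (2.30), in Rgs9 (2.24) and in Camta1 (2.21) had the same pattern.

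Regions wider in HF than in touch dome were led by Daam1, a formin gene of Wnt planar polarity signalling. Its region was covered for 357 and 459 bp in touch dome, 539 and 699 bp in IFE and 2091 and 2044 bp in HF (-2.37, SE 0.18, limma adjusted p = 0.00700). In Atxn7l1, the widths were 403 and 406 bp, 508 and 350 bp, and 1906 and 1734 bp (-2.19, SE 0.19, adjusted p = 0.00909). HF was the wide population at both, with no overlap. The region near Osgin2 (-1.99) had the same pattern. Without the second touch dome library 331 regions were wider in touch dome and 382 in HF, so the direction of the balance turned. Without the first, 97 and 28 were called. The counts fell to 316 and 123 without the first IFE library, 311 and 118 without the second, and 595 and 71 without the first HF library. Without centring they were 544 and 107.

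The comparison of IFE with HF called 2491 regions. There were 1394 wider in IFE (7.29%, against 5.84% of all regions tested) and 1097 wider in HF (5.74%, against 4.81%). The 1097 had medians of 674 and 669 bp in IFE and 1286 and 1235 bp in HF, with 899 and 1076 bp in touch dome. Near Serinc2 the widths were 3585 and 4126 bp in IFE, 855 and 411 bp in HF and 2195 and 2875 bp in touch dome (IFE minus HF = 2.66, SE 0.32, limma adjusted p = 0.00944). In Dock11, a guanine nucleotide exchange factor gene on the X chromosome, they were 2875 and 2697 bp in IFE, 518 and 383 bp in HF, and 1071 and 2801 bp in touch dome (2.60, SE 0.38, adjusted p = 0.0157), where the touch dome libraries stood far apart. The regions of Lnpep (2.42), Cep78 (2.30) and Sirt2 were named in this comparison too.

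The regions wider in HF than in IFE included that of Lbh (-2.54, SE 0.18, limma adjusted p = 0.00362) and one near Phyhip (-2.52). Near Calml3, the gene of a calmodulin-like protein of differentiating epithelia, the widths were 298 and 604 bp in IFE, 2351 and 2338 bp in HF and 1353 and 1566 bp in touch dome (-2.51, SE 0.33, adjusted p = 0.0117). Near Tead1, a transcription factor of the Hippo pathway, they were 524 and 330 bp, 2240 and 2268 bp, and 1270 and 2241 bp (-2.48, SE 0.27, adjusted p = 0.00790). Near Skint1, of a family known for selecting epidermal T cells, they were 320 and 341 bp, 1732 and 1663 bp, and 887 and 1078 bp (5.29-fold, SE of the log2 difference 0.12, adjusted p = 0.00286). Touch dome lay between the other populations at Calml3 and Skint1. The balance of directions depended on the libraries: without the first IFE library 258 regions were wider in IFE and 413 in HF, without the second 386 and 550, without the first HF library 934 and 339, and without the second 992 and 408.

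**Figure D5:**
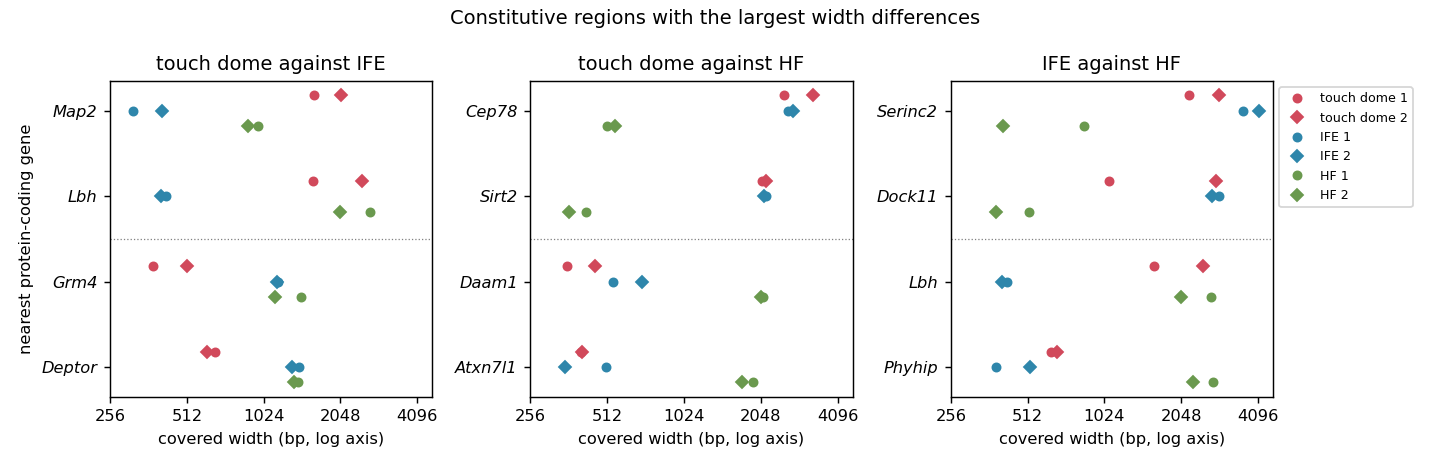
Covered width in bp on a log axis in each of the 6 libraries (red touch dome, blue IFE, green HF; circles first and diamonds second library) at the 2 constitutive regions per direction with the largest log2 difference among those called, labelled by nearest gene. Regions wider in the first population stand above the dotted line; at Cep78 and Sirt2 the HF points lie at 361 to 548 bp and all others at 2068 bp or more.

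The lists were also described by width, beside the share called over all constitutive regions away from gene ends and with no test of the lists. Large shares also occurred in marker lists of other cell types, which hold few regions. Between IFE and HF, endothelial and mural markers had 4 of 19 wider in IFE (21.1%, against 7.29% over all). Melanocyte markers had 2 of 11 wider in HF (18.2%, against 5.74%) and neuron markers 2 of 10. Fibroblast markers had 1 of 6 in each direction. Schwann cell markers had 1 of 17 wider in IFE and hepatocyte and cardiomyocyte markers 1 of 5. Of the 104 regions of hair follicle stem cell genes, the longest list, 18 were wider in HF than in IFE (17.3%, against 5.74% over all) and 3 in IFE (2.88%, against 7.29%), with a median log2 IFE minus HF of -0.24, against 0.01 over all constitutive regions away from gene ends. At Lgr5, the gene of an R-spondin receptor of stem cells, the region at chr10:115548396-115550956 was covered for 820 and 1276 bp in touch dome, 412 and 652 bp in IFE and 2446 and 2150 bp in HF (IFE minus HF = -2.19, SE 0.27, limma adjusted p = 0.0100). At Fst, the gene of the activin antagonist follistatin, the widths were 782 and 1394 bp, 431 and 313 bp, and 1517 and 1362 bp (-2.01, SE 0.25, adjusted p = 0.0108). IFE was the narrowest at both. HF lay above touch dome at Lgr5, and the 2 overlapped at Fst. At Runx1, the region at chr16:92626496-92627710 was covered for 1215 and 1141 bp in touch dome, 445 and 401 bp in IFE and 1104 and 1126 bp in HF. Touch dome exceeded IFE there by 1.499 on the log2 scale (SE 0.13, adjusted p = 0.0287) and differed from HF by 0.06 (adjusted p = 0.865).

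Touch dome keratinocyte genes had 35 constitutive regions, of which 4 were wider in HF than in IFE (11.4%, against 5.74% over all), 2 in IFE than in HF (5.71%, against 7.29%) and 2 in touch dome than in HF (5.71%, against 4.16%). Between touch dome and IFE limma called 0 of the 35, with 6 wider in touch dome and 0 in IFE at an unadjusted p under 0.05. The 2 called regions at Tnc went opposite ways. The region at chr4:64009973-64012354 was covered for 1426 and 1915 bp in touch dome, 2000 and 1908 bp in IFE and 673 and 584 bp in HF (IFE minus HF = 1.60, SE 0.11, limma adjusted p = 0.00362). The region at chr4:63993108-63994444 was covered for 1147 and 1294 bp, 771 and 836 bp, and 1225 and 1186 bp (-0.63, SE 0.094, adjusted p = 0.0164). Touch dome was with IFE at the first and with HF at the second, where its difference from IFE of 0.62 did not pass (adjusted p = 0.0834).

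At desmosome genes, HF was the narrower population wherever a comparison passed. Of 41 regions, 5 were wider in touch dome than in HF (12.2%, against 4.16% over all) and 5 in IFE than in HF (12.2%, against 7.29%). Limma called 0 wider in HF, against 1.31% and 5.74% over all, with 4 in each comparison at an unadjusted p under 0.05. The called regions lay at Dsg2, Dsp, Perp, Pkp1 and Pkp4. At Pkp4, which encodes a plakophilin, the widths were 2236 and 2380 bp in touch dome, 2486 and 2486 bp in IFE and 399 and 635 bp in HF (IFE minus HF = 2.26, SE 0.22, adjusted p = 0.00618). At Dsp they were 1513 and 1177 bp, 1398 and 1323 bp, and 551 and 399 bp (1.49, SE 0.22, adjusted p = 0.0152). HF stood below the other populations at both.

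EGF receptor signalling had 7 of 63 regions wider in HF than in IFE (11.1%, against 5.74% over all) and 1 wider in IFE (1.59%, against 7.29%), with 2 of the 7 at Egfr and 2 at Lrig1. Retinoid, vitamin D and steroid receptor genes had 9 of 72 wider in IFE, against 7.29% over all, and 4 wider in HF (5.56%), near the 5.74% over all. At Rora, the gene of an orphan nuclear receptor, the region at chr9:69053339-69056790 was covered for 2933 and 3091 bp in touch dome, 3449 and 2918 bp in IFE and 1452 and 1249 bp in HF (IFE minus HF = 1.19, SE 0.098, limma adjusted p = 0.00467). Between IFE and HF, epidermal transcription factors had 7 of 102 wider in IFE (6.86%) and 8 in HF (7.84%), near the 7.29% and 5.74% over all. Between touch dome and HF, 5 of the 102 were wider in touch dome (4.90%, against 4.16% over all) and 6 in HF (5.88%, against 1.31%). The 2 called regions at Cebpb, the gene of a differentiation factor, went opposite ways between IFE and HF, with differences of 0.98 (adjusted p = 0.0132) and -1.56 (adjusted p = 0.0152). Near Jun, an AP-1 gene, the called region was covered for 1385 and 1579 bp in IFE, 506 and 303 bp in HF and 1187 and 1192 bp in touch dome (1.88, SE 0.24, adjusted p = 0.0112).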

How the data were processed

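The data were 1 deposited peak list for each of 6 ATAC-seq libraries, 2 per population. Tools named in the submitters' processing notes are Trim Galore (0.6.7), Bowtie2 (version 2.4.5), SAMtools (version 1.9) and MACS2 (version 2.2.7.1), on mm10. Their settings, any transposase shift and the threshold for a peak were not stated in the sources used here. Each deposited list has 4 columns, the peak's position and its name, and no score. Sequencing depth is therefore unknown, and a deeper library can gain weak or wider peaks. Positions are counted from 1.

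The labels gave groups and replicate numbers. Overlapping peaks (1 bp) were merged, and genes, promoters and microRNAs came from RefSeq tables of GRCm38.p6, with 21887 protein-coding spans. Each region took the nearest protein-coding span within 50 kb. Width, the bp under a library's peaks, was tested with limma 3.58.1 in R 4.3.3 (3 populations in 1 fit, variance trend, library medians centred, no replicate block). Shares and library pairings had exact permutation tests; intervals are exact binomial at 95% and cover counting error only. Other work used Python 3.11.15. On simulated data, limma found 58.0%, 36.0% and 40.0% of 50 regions changed by 1 on the log2 scale (in the order touch dome with IFE, touch dome with HF, IFE with HF; 34250 regions), and 80.0%, 84.0% and 80.0% at 2. At 0.5 it found 12.0%, 4.00% and 6.00%, so a region that was not called may still differ by such an amount. The 3 simulations used the same spreads and planted changes, so their percentages differ by the random draw and do not rank the comparisons. In the data, a difference of 1.08 at a region labelled Fbn1 did not pass between touch dome and IFE (limma adjusted p = 0.0567). A difference of 0.33 at a region labelled Krt10 passed between IFE and HF (adjusted p = 0.0466).

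Members and the 20 gene lists were chosen with earlier results of these data known. Named were the 10 genes with the most regions, the genes of the 5 largest groups, the 5 widest cores, the 5 largest differences per comparison and direction among those called, up to 4 genes per list by number of regions, and regions over microRNA genes. Other genes and regions, such as Ets2, Irf2bpl, those with an inner start and those described at list genes, were chosen after their values were seen. Some items that the rule names are not reported here. A planned motif count over the cores was left out for want of a genome sequence. The alternatives tried are given in the closing section.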

Additional observations from a re-analysis of the deposited data

How the results depend on the processing

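The number of constitutive regions stayed within 14444 and 20809 under other merging, distances, gene windows, autosomes alone and a cover of at least 50% of the region, and was 7344 with the wider 50% of each library's peaks. Requiring a peak in only 5 given libraries gave 19247 to 20273. Their share of peak length, 39.7% over the 6 libraries, was 32.9% beyond 5 kb of gene ends, 31.2% with 50% cover, 30.6% and 43.2% with gene windows of 10 and 100 kb, and 29.4% with the wider peaks.

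Counts of regions that differed in width moved most. Touch dome against IFE gave 99 in all, 16 without centring and 42 with a replicate block; leaving out 1 library gave 0 to 52, the 52 (without the second touch dome library) with the direction reversed. The split was 88.9% wider in touch dome, and 100% without centring. Touch dome against HF gave 1046, 651 without centring, 846 with the replicate block and 125 to 713 with 1 library left out, the 713 (without the second touch dome library) reversed. IFE against HF gave 2491, 2345 with the replicate block and 671 to 2303 with 1 library left out, reversed at 671 and 936, without an IFE library. Reversed here means that the population with more called regions changed, and 0 of the named regions changed direction. The cause was not tested. Where a population was left with 1 library, that library was assumed to vary like the others. Leaving out a library of the population outside a comparison changed no difference and acted only through the estimate of spread. The labels do not say that replicate numbers pair libraries, and deviations of equal numbers correlated at 0.0616, 0.0560 and 0.123.

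At the named regions, 352 of 436 alternative values kept direction and call, 84 no longer passed and 0 reversed. With 1 library left out, 8 of 60 touch dome against IFE values still passed (adjusted p 0.0246 to 0.186), 55 of 60 against HF and 57 of 60 for IFE against HF. The rank pairing of libraries could not be run with 5 libraries, and depth, which limits what a missing or narrow peak means, is unknown. Of the 20 lists, 12 lay above the share over all genes, 15 with a gene window of 10 kb and 12 inside spans, where AP-1 genes had 22.2% and fibroblast markers 55.6%.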
